A study of Rattus norvegicus with 20 samples.

Results

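Milk fat RNA of rat dams that had received saline on postnatal day 10 (P10) was described from 5 of the 20 libraries of the series, those whose column names carry P10 and saline. The dams were wild-type Sprague-Dawley rats in mid-lactation. Each was injected with pyrogen-free saline, the vehicle of an endotoxin study, and milked 2 h later under light isoflurane after an injection of oxytocin (0.2 mL at 20 USP units per mL), the hormone of milk ejection. These 5 libraries are therefore the first milking of vehicle-treated dams, and no uninjected dam is among the samples. Each library came from 1 dam, and the 5 dams are named libraries 1 to 5 by the replicate number in the column names. The fat layer was spun off and washed, its total RNA isolated, and stranded mRNA libraries were sequenced. No contrast was made and no test was run: every value below is a level, and every error is the SD between the 5 libraries.

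Milk fat is secreted as globules. Lipid droplets move to the apical surface of the luminal secretory cells of the mammary alveolus and leave the cell wrapped in its plasma membrane, and crescents of cytoplasm can be carried along. RNA of the fat layer is therefore used as a sample of the milk-making epithelium taken without a biopsy. Milk also holds shed epithelial cells and leukocytes, which can spin up or be trapped with the fat.

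Values are given as normalised counts, meaning reads scaled by the authors for library size, or as the share of all normalised counts of a library. Shares sum to 100% in each library. A read count grows with transcript length as well as with the number of molecules, so the order of genes is an order of reads, and nothing here compares molecules between genes. The 5 libraries held an estimated 75700000, 68200000, 77700000, 68900000 and 63600000 reads in the 16748 genes of the table. Low shares are given in RPM, reads per 1000000 reads of these genes, and 3 reads, the limit that a count of 0 allows, corresponded to between 0.0386 and 0.0472 RPM. This limit covers counting error only. The log2 values of any 2 libraries had a Pearson correlation of 0.984 to 0.989 across the 12610 genes with a read in at least 1 library, which is a description across genes that are not independent of each other. By this measure no library stood apart, but library 3 stood apart in haemoglobin, as given below.

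The labels call the material milk, and markers of milk-secreting epithelium were high in all 5 libraries. All 19 luminal epithelial markers in the table were detected in every library, with 15 at a mean of at least 1000 normalised counts. Elf5, a transcription factor of the alveolar lineage, was the highest of them at 58213 ± 5684 normalised counts (SD, n = 5) and ranked 37 of all genes. In bulk RNA, fewer cells of a type and less RNA per cell cannot be told apart, so a marker level below is a level of RNA and not a number of cells.

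The caseins, the calcium-binding proteins that form milk micelles, were the largest group. Their 5 genes held 56.6% ± 7.33 of the normalised counts (SD, n = 5), with 64.4, 47.8, 49.7, 59.7 and 61.1% in libraries 1 to 5. In the promoters, 4 of the 5 carry a copy of the palindrome TTCNNNGAA, the kind of site that STAT5, the transcription factor activated by prolactin, is known to bind. These promoters are shown because these genes are the highest group of the pool. Each is 250 bases before to 50 bases after the annotated start, from RefSeq on the rat assembly GRCr8, chromosome 14, 5′ to 3′ on the strand of the gene, with the palindrome in capitals. The deposited values were made on rn6, so these coordinates are those of the sequence table and not of the counting.
Csn1s1 (alpha-s1-casein, chr14:20638800-20639099, minus strand): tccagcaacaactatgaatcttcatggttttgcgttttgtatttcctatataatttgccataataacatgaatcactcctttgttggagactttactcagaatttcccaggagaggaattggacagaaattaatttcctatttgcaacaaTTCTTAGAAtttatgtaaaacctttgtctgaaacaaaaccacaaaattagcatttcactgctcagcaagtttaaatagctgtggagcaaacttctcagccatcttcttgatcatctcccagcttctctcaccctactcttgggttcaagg
Csn2 (beta-casein, chr14:20601574-20601873, plus strand): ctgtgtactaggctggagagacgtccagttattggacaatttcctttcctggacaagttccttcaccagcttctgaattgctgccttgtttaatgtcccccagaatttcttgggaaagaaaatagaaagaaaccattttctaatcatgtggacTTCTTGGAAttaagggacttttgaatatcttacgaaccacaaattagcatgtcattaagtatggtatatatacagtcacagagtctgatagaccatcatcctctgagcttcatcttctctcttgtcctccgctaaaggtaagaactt
Csn1s2a (alpha-s2-casein-like A, chr14:20574422-20574721, minus strand): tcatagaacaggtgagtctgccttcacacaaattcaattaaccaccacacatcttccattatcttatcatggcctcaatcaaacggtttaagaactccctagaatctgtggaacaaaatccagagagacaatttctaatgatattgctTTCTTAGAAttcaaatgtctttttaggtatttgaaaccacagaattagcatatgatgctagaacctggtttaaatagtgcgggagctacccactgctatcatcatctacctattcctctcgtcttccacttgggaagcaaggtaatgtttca
Csn1s2b (alpha-s2-casein-like B, chr14:20545569-20545868, minus strand): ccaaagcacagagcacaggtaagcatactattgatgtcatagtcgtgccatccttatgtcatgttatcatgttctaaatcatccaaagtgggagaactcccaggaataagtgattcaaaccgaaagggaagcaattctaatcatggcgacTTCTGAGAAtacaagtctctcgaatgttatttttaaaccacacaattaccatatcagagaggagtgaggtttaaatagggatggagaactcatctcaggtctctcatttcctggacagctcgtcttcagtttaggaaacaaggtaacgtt
Csn3 (kappa-casein, chr14:20439781-20440080, minus strand): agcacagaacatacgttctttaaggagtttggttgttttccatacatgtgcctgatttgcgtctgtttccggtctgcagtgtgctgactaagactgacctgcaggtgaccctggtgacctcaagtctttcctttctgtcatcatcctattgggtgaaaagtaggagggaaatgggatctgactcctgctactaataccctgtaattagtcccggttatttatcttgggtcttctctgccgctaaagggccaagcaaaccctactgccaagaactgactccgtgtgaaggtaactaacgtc
The palindrome reads the same on both strands and was searched once. It begins 100 bases before the start in Csn1s1, 97 in Csn2, 102 in Csn1s2a and 100 in Csn1s2b, so its place is nearly the same in the 4 promoters. It was not found in the 300 bases of Csn3. Of all 27457 promoters in the sequence table, 8.68% hold the palindrome somewhere, and 0.641% hold it starting 90 to 110 bases before the start, a window set after the casein positions were seen. Of the 8619 promoters of genes detected in all 5 libraries, 6.80% hold it. Among the 30 highest genes, 23 have a promoter in the table and 5 hold the palindrome, the fifth being Glycam1 with a copy starting 175 bases before the start. A match describes these letters only and does not show that a factor was bound.

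Csn1s1 was the highest gene of all, with 27.7, 19.9, 19.7, 23.5 and 24.8% of the counts in libraries 1 to 5. Csn2 followed with 24.0, 18.1, 18.4, 24.1 and 23.2%. The order of the pair was not the same in every library, since Csn2 was above Csn1s1 in library 4, and their means of 23.1% ± 3.38 and 21.5% ± 3.05 (SD, n = 5) differ by less than their spread. Csn1s2a came next at 6.45% ± 0.671, and Csn3, the casein that caps and stabilises the micelle, averaged 4.46% ± 0.668. Csn1s2b was the lowest casein, with 0.656, 0.752, 1.48, 1.15 and 0.822% in the 5 libraries. Its spread went its own way: it had its highest share in library 3, where Csn1s1 had its lowest.

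**Figure D1:**
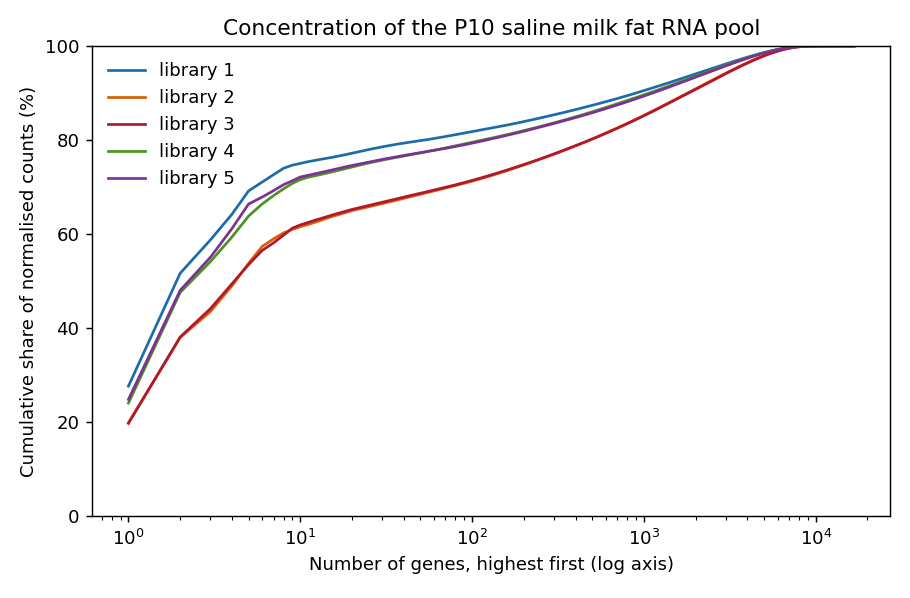
Cumulative share of normalised counts (percent, y axis) against the number of genes taken from the highest down (log x axis), with 1 line for each of the 5 libraries. The lines pass 50% after 2 to 5 genes and 90% after 902 to 1820 genes.

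Very few genes held most of the RNA. By the mean over libraries, 3 genes held 50% of the normalised counts, 16 held 70%, 1395 held 90%, 2928 held 95% and 5896 held 99%. The 10 highest genes held 75.0, 61.3, 61.9, 71.6 and 72.1% in libraries 1 to 5, which is 68.4% ± 6.33 (SD, n = 5). The first 30 together took 72.6% ± 5.68, the first 100 took 76.6% ± 4.97, and the first 1000 took 87.8% ± 2.60. Libraries 2 and 3 were the least concentrated: they needed 5 genes to reach 50% and 1796 and 1820 genes to reach 90%, where library 1 needed 2 and 902.

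Below that peak the pool was broad. Of the 16748 genes, 10506 (62.7%) had a read in all 5 libraries and 4138 (24.7%) had none in any. These shares are the background for every count of detected list members in this text. A mean of at least 100 normalised counts was reached by 8107 genes, of at least 1000 by 3913, of at least 10000 by 302, of at least 100000 by 23 and of at least 1000000 by 7. Protein-coding genes held 99.5% of the counts. The 108 genes that the reference classes as long noncoding RNA held a mean of 0.0243%, and 59 of them had a read in every library. Of a list of 8 long noncoding RNAs only 4 were in the table, Gas5 and H19 among them, and these summed to 6.49 ± 1.55 RPM. The ribosomal RNA entries, which poly(A) selection is meant to remove, still held 0.415% ± 0.0602, with Rn18s at rank 20 and Rn28s at rank 21. Only 4 of 434 microRNA gene entries had a read in every library, and these are reads of the hairpin region in a long-RNA library, not of the mature microRNA. Not 1 mitochondrially encoded gene is among the rows of the table, so the mitochondrial share of the RNA was not analysed here.

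**Figure D2:**
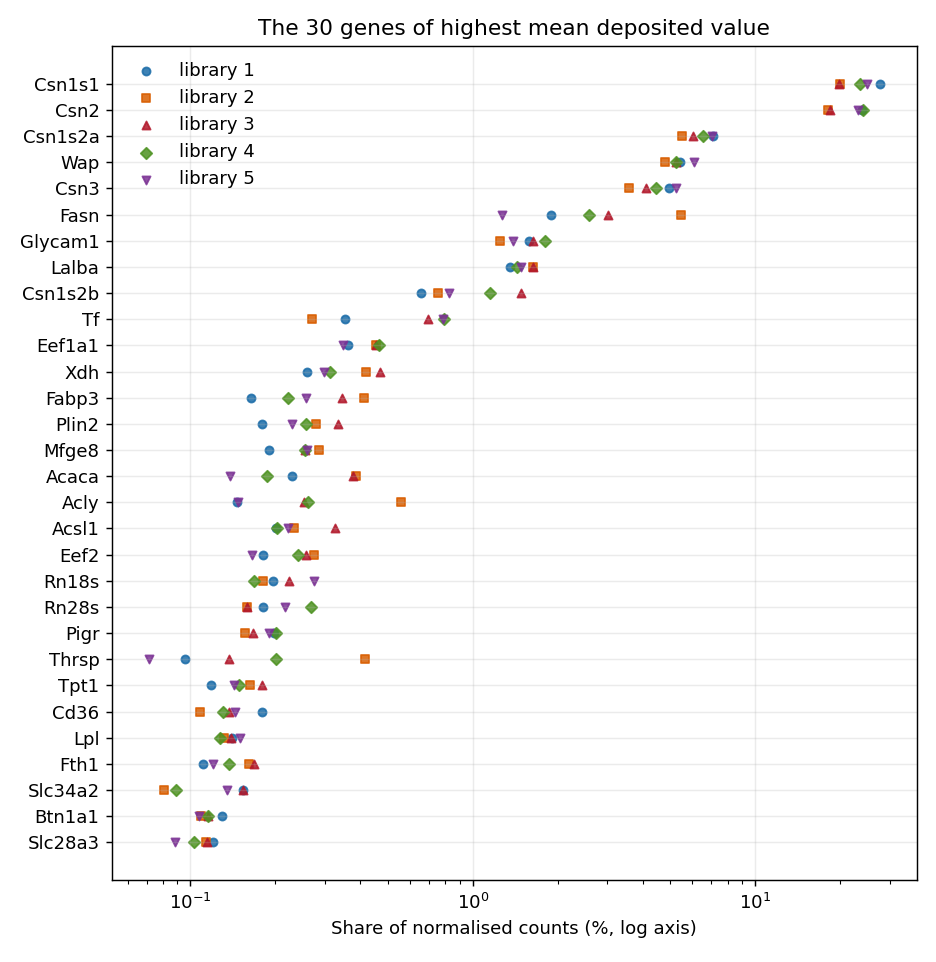
Share of normalised counts (percent, log x axis) of the 30 genes with the highest mean deposited value (y axis, highest at the top), with 1 point for each of the 5 libraries. Shares run from above 10% for Csn1s1 and Csn2 to about 0.1% for Slc28a3, and Fasn, Acly and Thrsp have their highest point in library 2.

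Whey proteins, the soluble proteins of milk, were the second group. The list of 17 whey and other secreted milk proteins held 9.21% ± 0.682 of the counts, and 14 of the 17 were detected in every library. Wap, the whey acidic protein of rodent milk, held 5.44, 4.79, 5.26, 5.23 and 6.08% in libraries 1 to 5. Every library had it above 4%, and its mean share was 5.36% ± 0.468. On the log2 scale its SD was 0.39, only a little below the 0.44 to 0.51 of the caseins. Glycam1, a mucin-like protein of the milk fat globule, averaged 1.53% ± 0.217, and Lalba, the alpha-lactalbumin that turns galactosyltransferase into lactose synthase, averaged 1.51% ± 0.123. Lalba was the steadiest of the major milk protein genes, with an SD of 0.19 on the log2 scale, against 0.51 for Csn1s1 and 0.51 for Csn2.

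Tf, the iron carrier transferrin that the rodent gland secretes into milk, varied widely between libraries, with 0.353, 0.269, 0.692, 0.794 and 0.786% in the 5 libraries. It was low in libraries 1 and 2 and higher in the other 3. Alb, the serum albumin gene, had no read in any library. Lpo, the antibacterial lactoperoxidase of milk, averaged 24903 ± 5418 normalised counts, and Pigr, the receptor that carries dimeric IgA through the epithelium into milk, held 0.182% ± 0.0195 at rank 22. Pigr was accompanied by B2m, the shared light chain of class I molecules and of the neonatal Fc receptor, at 29475 ± 7323 normalised counts, and the antibody transfer list held 0.226% ± 0.0222. Fcgrt, the Fc receptor chain that binds IgG, was near the floor with 2.14, 6.97, 2.66, 5.44 and 0 normalised counts in libraries 1 to 5.

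Making milk fat took the next share. The 17 genes of fatty acid synthesis were all detected in every library, all with means of at least 1000, and held 4.03% ± 2.13 of the counts. The libraries differed, with 2.70, 7.49, 4.29, 3.72 and 1.95% in libraries 1 to 5. Library 2 had the most and library 5 the least, while whey proteins ran from 8.16% to 9.97%.

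Fasn, the fatty acid synthase, was the highest gene that does not code for a secreted milk protein, with 1.89, 5.48, 3.01, 2.57 and 1.27% in the 5 libraries. Acly and Acaca, which make the acetyl-CoA and malonyl-CoA that Fasn uses, averaged 0.273% ± 0.168 and 0.263% ± 0.112. Thrsp, a lipogenic regulator known as Spot 14, had 77649, 218969.9, 70386, 150763 and 51010.4 normalised counts in libraries 1 to 5. Srebf1, the transcription factor of lipogenic genes, had 46160.2, 66519, 26676, 101444 and 17415. Library 5 was the lowest for both, but the highest was library 2 for Thrsp and library 4 for Srebf1. Olah, the thioesterase that ends synthesis at medium-chain fatty acids in the rodent gland, averaged 49719 ± 21892 normalised counts. Me1, the malic enzyme that supplies NADPH, hardly varied in normalised counts, at 61359, 70125, 70859, 69878 and 65989.

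Fatty acid uptake and triglyceride assembly were present in full: all 22 listed genes were detected in every library and held 0.962% ± 0.127. Fabp3, a cytosolic fatty acid carrier, led with 0.280% ± 0.0993, ahead of Acsl1, which activates fatty acids with coenzyme A, at 0.237% ± 0.0513, and of the fatty acid receptor Cd36 at 0.140% ± 0.0258. Lpin1, the phosphatidate phosphatase, was the one member with a very wide spread, at 36044, 17758, 9719, 66699 and 8356 normalised counts in libraries 1 to 5. It was lowest in libraries 3 and 5 and highest in library 4. Cholesterol synthesis was lower as a group, at 0.0949% ± 0.0356, with 23 of 24 genes detected in every library.

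The milk fat globule membrane list held 1.59% ± 0.242, and all 13 of its genes in the table were detected in every library. Xdh, a purine enzyme that is also a structural part of the globule coat, had the lowest spread of the 30 highest genes, with an SD of 0.09 on the log2 scale and 209062, 221093, 241249.7, 235613 and 212655 normalised counts in libraries 1 to 5. Plin2, the protein on the surface of the cytoplasmic lipid droplet, averaged 164205 ± 19853, and Btn1a1, the butyrophilin that joins droplet and membrane, averaged 77154 ± 19879.9. In normalised counts the 5 libraries lay close for Xdh and Plin2 and further apart for Btn1a1, which ran from 57471 to 104979.7. By share Btn1a1 was instead the closest, at 0.107 to 0.130%. Xdh ran from 0.258 to 0.468% and Plin2 from 0.180 to 0.333%. Gp2, a zymogen granule protein in the same list, was the only member under 1000, at 14.8 ± 10.4.

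Lactose synthesis was complete but far lower in reads than lipid synthesis. All 15 listed genes were detected in every library and together held 0.116% ± 0.0309. B4galt1, the galactosyltransferase that Lalba converts to lactose synthase, had 18096, 9129.6, 28598, 13686 and 24368 normalised counts in libraries 1 to 5. It was lowest in library 2 and highest in library 3, unlike Lalba, whose values of 1095780.2, 862347, 839342, 1081290.5 and 1058410.1 stayed close together. Slc2a1, the main glucose transporter of the gland, averaged 8635 ± 1258.

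Mineral transport was led by Slc34a2, a sodium-phosphate cotransporter of the apical membrane, at 81698 ± 30713 normalised counts, by Atp2b2, the calcium pump that loads milk with calcium, at 48951 ± 11083, and by the transferrin receptor Tfrc at 14972 ± 4295. Of this list, 25 of 26 genes were detected in every library, and it held 0.331% ± 0.0452. Amino acid and water transporters held 0.0480% ± 0.00389, with Slc38a2, Slc7a5 and the water and glycerol channel Aqp3 in front. All 15 listed genes of the tight junctions, which close the alveolus during lactation, were detected in every library at 0.0612% ± 0.00717 of the counts, with Cldn8 the highest at 8881 ± 2354.

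The controls of lactation were present at high levels. Elf5 and Stat5a are transcription factors that drive alveolar differentiation and casein transcription. Elf5 had 49578, 62750.2, 55465, 62885 and 60388 normalised counts in libraries 1 to 5, and Stat5a had 16066, 21262, 15719.6, 15734 and 14502. In normalised counts Elf5 was steady in all 5, and Stat5a was highest in library 2 with the other 4 close together. The prolactin and STAT5 list held 0.175% ± 0.0437. Prlr, the prolactin receptor, was present in every library at 1447 to 2684. Socs2 and Socs3, feedback inhibitors of cytokine receptors, were low, at 51.9 ± 49.6 and 20.4 ± 18.2. Of the 27 mammary transcription factors, 26 were detected in every library at 0.318% ± 0.0809, with Elf5, Srebf1 and Xbp1, the factor of the secretory endoplasmic reticulum, highest.

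The machinery of protein synthesis and export was detected in every library where its genes were in the table. Of 79 listed cytosolic ribosomal protein genes, 63 were in the table. All 63 were detected in every library, each with a mean of at least 1000, and held 1.67% ± 0.240. The 26 translation factors in the table, of 28 listed, were too, at 1.20% ± 0.198, led by the elongation factor Eef1a1 at 0.417% ± 0.0577. Copies of Eef1a1, Tpt1 and many ribosomal protein genes are scattered through the rat genome, so their counts depend on how the authors' counting treated reads that match several places. All 31 signal peptide targeting genes, all 29 COPI and COPII coat genes and all 26 endoplasmic reticulum folding genes were detected in every library, and these groups held 0.263% ± 0.0301, 0.396% ± 0.105 and 0.225% ± 0.0225. P4hb, a disulfide isomerase, and the stress factors Xbp1 and Atf4 were the highest of the folding list at 21171 ± 5881, 20345 ± 5146 and 18781 ± 3669 normalised counts.

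Energy metabolism was detected nearly in full. All 54 nuclear oxidative phosphorylation genes and all 22 genes of the citric acid cycle were detected in every library, holding 0.478% ± 0.113 and 0.335% ± 0.0881. Pc, the pyruvate carboxylase that refills oxaloacetate for citrate export, was the highest of the cycle's list at 39369 ± 6287 normalised counts. Aldoc, an aldolase best known from brain, was the highest glycolytic gene at 68197 ± 8038, above Aldoa at 14621 ± 1206. In libraries 1 to 5 Aldoc had 63466, 68783, 57346, 74028 and 77360.5, so it was high in all of them. The glycolysis list held 0.288% ± 0.0752, with 16 of 17 genes detected in every library.

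Protein turnover and stress genes were broadly detected. All 26 proteasome genes, all 26 lysosomal genes and all 28 antioxidant genes were found in every library, and these lists held 0.127% ± 0.0351, 0.233% ± 0.0414 and 0.268% ± 0.0588. The cathepsins Ctsd and Ctsb, lysosomal proteases, were the highest lysosomal genes at 43314 ± 14964 and 31196 ± 9697 normalised counts. Gsta1, a glutathione transferase, led the antioxidant list at 39774 ± 8534, and Hsp90ab1, a cytosolic chaperone, led the heat shock list, which held 0.119% ± 0.0353, at 39363 ± 3285. The list of STAT3 signalling and involution, the regression of the gland after weaning, held 0.162% ± 0.0462, of which Ctsd and Ctsb were again the highest. Igfbp5, a growth factor binding protein known to rise in involution, averaged 45.3 ± 40.5 and was picked out after its values were seen. Immediate early genes held 0.0249% ± 0.00529, led by the mRNA decay factor Zfp36 at 3809.6 ± 873.

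**Figure D3:**
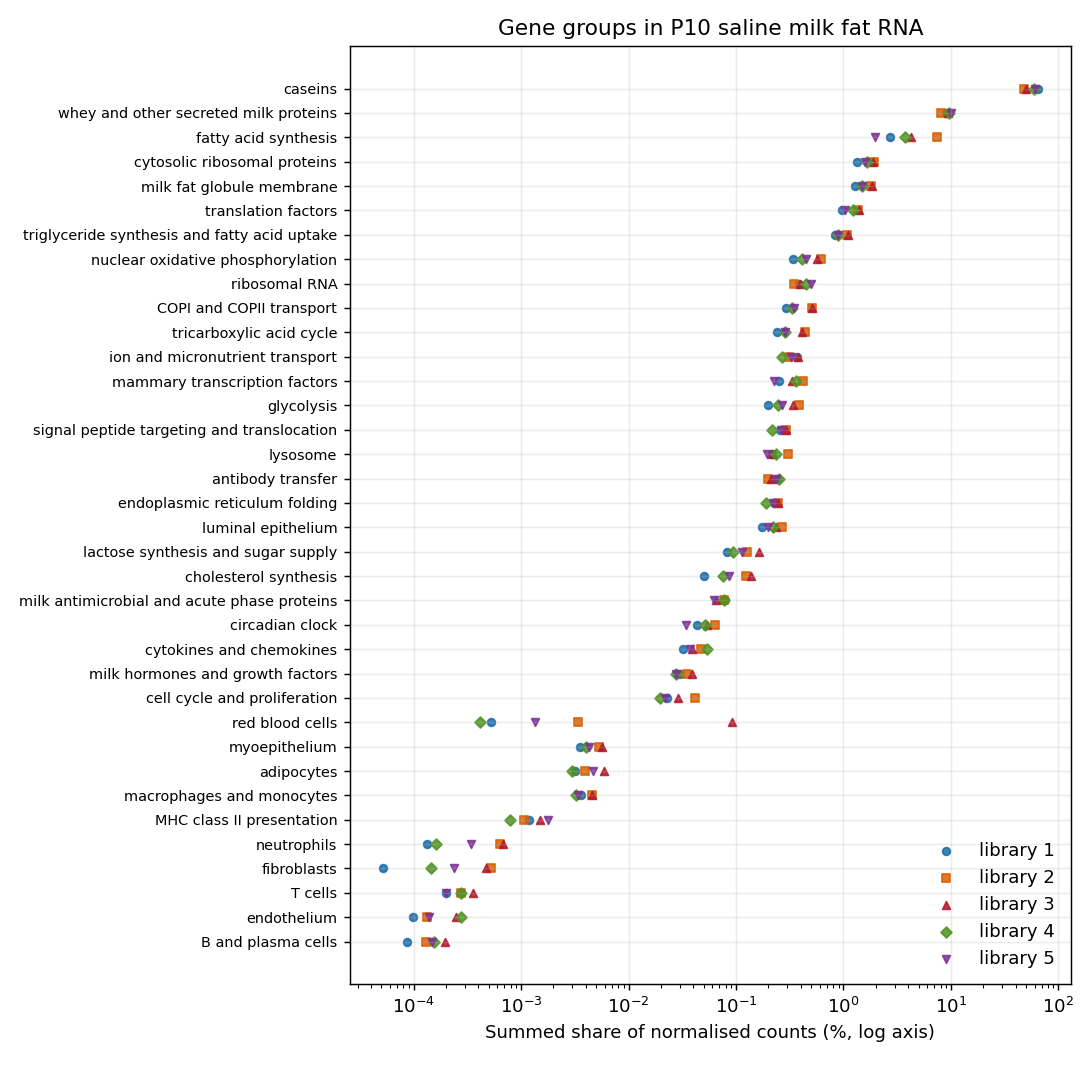
Summed share of normalised counts (percent, log x axis) of 36 gene groups (y axis, ordered by mean), with 1 point for each of the 5 libraries. Caseins lie at 47.8% to 64.4%, leukocyte and stromal groups lie below 0.01%, and the red blood cell group has 1 point, library 3, far above the other 4.

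A few cytokine and chemokine genes were abundant, and most were scarce. Of 35 cytokines and chemokines, 17 were detected in every library and 7 in none, namely Il6, Il10, Il12a, Il12b, Ifng, Csf2 and Cxcl14. Over all genes, 62.7% were detected in every library and 24.7% in none. The median of the list was 4.21 normalised counts, beside 75.2 over all genes. The list held 418 ± 84.8 RPM, and Il33 and Ccl28 were its highest members. Il33, a nuclear alarmin of barrier epithelia, had 16948, 19453, 13862, 32595 and 18226 normalised counts in libraries 1 to 5. Ccl28, which draws IgA-secreting cells to mucosal glands, had 6036, 4311, 3583, 5597 and 5707. Both were high in all 5 libraries. Csf1, a growth factor of macrophages and the next highest, averaged 743 ± 340.1.

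Of 19 Toll-like receptor and NF-kB genes, which sense microbes, 16 were detected in every library at 0.0295% ± 0.00576 of the counts, with the kinase Irak1 at 5154 ± 411 highest, and Tlr9 in none. All 27 interferon response genes were detected in every library, although they held only 0.0461% ± 0.0151. Among the milk antimicrobial and acute phase genes, 12 of 18 (66.7%) were detected in every library, beside 62.7% of all genes. The list held 0.0723% ± 0.00743. C3, the central complement component, had 14881, 3646, 3962, 18373 and 5509.6 normalised counts, high in libraries 1 and 4 and lower in the other 3. Lcn2, which withholds iron from bacteria, averaged 5743 ± 2266. MHC class II genes, which present antigen, summed to 12.6 ± 3.83 RPM, led by the protease Ctss at 328 ± 46.2 and the invariant chain Cd74 at 253 ± 113.

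Of the 29 milk hormones and growth factors, 17 (58.6%) were detected in every library at 0.0320% ± 0.00503, and 5 in none, among them Adipoq, Ereg, Stc2 and Calca. Over all genes these shares were 62.7% and 24.7%. Apln, the peptide apelin, led with 5607 ± 1051 normalised counts, followed by Egf at 3828 ± 844 and Nucb2, the precursor of nesfatin, at 3331 ± 987. Pthlh, which mobilises maternal calcium in lactation, had 115, 134, 675, 118 and 851 in libraries 1 to 5 and was picked out after its values were seen. It was above 600 in libraries 3 and 5 and below 140 in the others.

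All 30 genes of proliferation were detected in every library, and they held 0.0270% ± 0.00882. Of the 30, 28 reached a mean of 100 normalised counts, beside 8107 of the 16748 genes, and 5 reached 1000, beside 3913 of the 16748. The median of the list was 333 normalised counts, beside 75.2 over all genes. Ccnd1, a cyclin of early G1, and the cell cycle inhibitor Cdkn1a averaged 3594 ± 499 and 2437 ± 1238, and the proliferation marker Mki67 averaged 1249 ± 253. Mki67 ran from 952 to 1574, so every library had it.

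**Figure D4:**
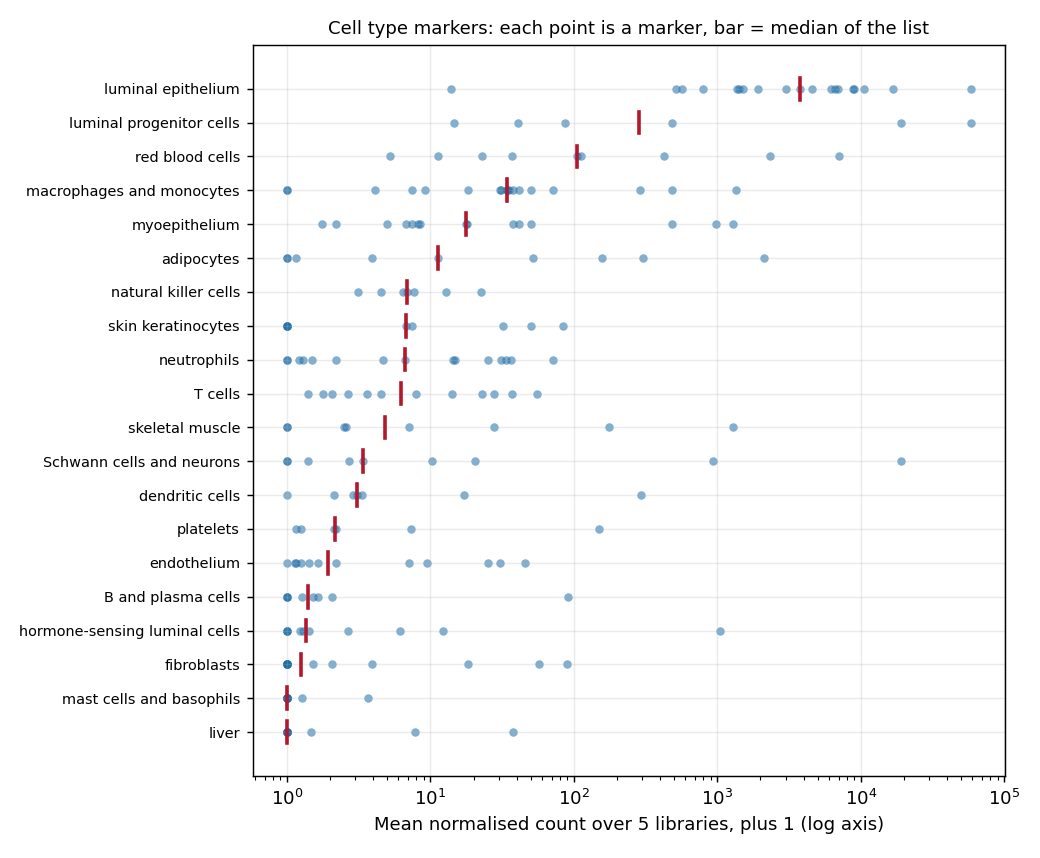
Mean normalised count over 5 libraries plus 1 (log x axis) of each marker (points) in 20 cell type lists (y axis, ordered by the list's median, drawn as a bar). The luminal epithelial median is 3795 normalised counts, and those of leukocyte, stromal and vascular lists are under 35.

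Among the mammary cell types, the secretory luminal cell had 18 of its 19 markers at a mean of at least 100 normalised counts and 15 at 1000 or more. Luminal markers summed to 2192 ± 348 RPM (SD, n = 5). Krt8 and Krt18, the keratins of simple epithelium, averaged 9036 ± 2190.2 and 6954 ± 1490.0 normalised counts, and Epcam, an epithelial adhesion protein, averaged 8758 ± 2280.4. The luminal progenitor list was detected in full, 6 of 6, at 1222 ± 306 RPM, but rested on Elf5 and Sox10, with Kit at only 13.5 ± 12.1. Sox10, a factor of neural crest cells that is also known in mammary progenitors, had 18221, 22216, 18436, 19037 and 17915 normalised counts in libraries 1 to 5, which placed it at rank 127. It was high in every library, while Rbfox3, a marker of neurons, had no read in any. The list of Schwann cells and neurons summed to 316 ± 86.3 RPM, and Sox10 was its highest member, ahead of the myelin gene Mbp at 927 ± 303.

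Hormone-sensing luminal cells were represented by 1 gene above 100 normalised counts, and the list summed to 16.3 ± 4.05 RPM. Esr1, the oestrogen receptor, had 1409, 827, 1132, 879 and 936 normalised counts in libraries 1 to 5. Pgr, the progesterone receptor, had 3.21, 0, 3.97, 0 and 1.13, more than 3 reads in library 3 only. Areg, Prom1 and Cited1 were below a mean of 1, and Ly6d, Tff3 and Calca had no read in any library.

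Markers of the contractile myoepithelial cell were uneven. Of 15 genes, 12 were detected in every library, and the list summed to 45.7 ± 9.15 RPM. Acta2, smooth muscle actin, was the highest at 938, 1454, 1438, 1055 and 1535 normalised counts in libraries 1 to 5, followed by Itgb4 at 973 ± 243 and Mylk at 486 ± 107. Krt5 and Krt14, basal keratins of the cell, were near the floor. Krt5 had 10.7, 3.10, 7.31, 8.69 and 2.26, and Krt14 had 10.7, 1.55, 9.97, 1.09 and 5.65. Krt17 and Tp63 of the same list were somewhat higher, at 36.8 ± 21.5 and 49.3 ± 20.3, and were detected in every library. Acta1, the skeletal muscle actin whose protein is nearly identical to that of Acta2, had 1029.7, 1637, 1462, 1092 and 1259.8, close to Acta2 in each library, while Myh1 and Myh2, the fast muscle myosins, had no read and the skeletal muscle list summed to 24.2 ± 9.36. How the counting divided reads between the actin genes is not given in the sources used here, and their separate levels are uncertain.

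Stromal markers were low. The fibroblast list summed to 2.85 ± 2.04 RPM, and 6 of its 12 genes had no read in any library, among them Col3a1, Dcn, Lum and Pdgfrb. Its highest members were Fn1 at 89.0 ± 70.5, Vim at 56.4 ± 24.5 and Col5a1 at 17.4 ± 8.75 normalised counts. The endothelial list summed to 1.78 ± 0.779 RPM, with Pecam1 highest at 44.9 ± 34.9. The adipocyte list summed to 41.1 ± 11.9 RPM. Adipoq and Pck1 had no read in any library and Plin1 averaged 0.154 ± 0.345, while Lipe, the hormone-sensitive lipase, made up most of the sum at 2116 ± 528. Cidec, Cfd and Fabp4 of the same list were detected in all 5 libraries, at 157 ± 32.4, 305 ± 114 and 50.6 ± 16.0 normalised counts.

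Leukocyte markers were found at low levels in every library. The macrophage and monocyte list summed to 38.9 ± 6.40 RPM, with 15 of 18 genes detected in all 5 libraries and Cd163 and Marco in none. Cd14 at 482 ± 203 and Lyz2 at 287 ± 134 normalised counts were among its highest members, and Cd14 is also on the luminal progenitor list. Genes held more strictly by macrophages were lower, such as Csf1r at 49.4 ± 26.6 and C1qa at 33.3 ± 13.7.

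The neutrophil list summed to 1.33, 6.38, 6.84, 1.63 and 3.39 RPM in libraries 1 to 5. It was lowest in libraries 1 and 4 and highest in libraries 2 and 3. Ptprc, which all leukocytes carry, averaged 71.0 ± 31.2 normalised counts, and the list members S100a9 and S100a8 averaged 35.3 ± 17.6 and 32.6 ± 12.9. The granule genes of immature neutrophils, Mpo and Elane, had no read in any library. Neutrophil and macrophage markers together held 0.00416% ± 0.000823 of the counts (SD, n = 5).

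Lymphocyte and dendritic cell lists were low in reads as well. The T cell list summed to 2.62 ± 0.661 RPM, with 6 of 12 genes detected in every library and Lck, a T cell kinase, highest at 54.0 ± 15.0 normalised counts. The natural killer list summed to 0.921 ± 0.434 and the dendritic list to 4.92 ± 1.58, of which Batf3 at 295 ± 83.7 was the greater part. The B and plasma cell list summed to 1.43 ± 0.391, with Ms4a1, Cd79b and Mzb1 at no read and Blnk, an adaptor at 89.8 ± 20.8, carrying nearly the whole sum. The mast cell and basophil list had 7 of 9 genes at no read in any library, among them Cpa3, Tpsab1, Tpsb2 and Mcpt2, and summed to 0.0449 ± 0.0376 RPM.

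Lists for tissues outside the gland were read the same way. The liver list summed to 0.640 ± 0.310 RPM, with 6 of 9 genes at no read, among them Apob, Ttr, Fgb and Ahsg, and Serpina1 at 36.7 ± 26.4 normalised counts was its highest. The skin keratinocyte list, skin being the surface of the teat, summed to 2.79 ± 0.960, with Krt1, Krt2, Krt77 and Ivl at no read and Krt10 highest at 83.7 ± 17.3. The T cell and fibroblast sums differ from that of skin keratinocytes by less than the spread between libraries, and the macrophage sum is above it in every library.

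Red blood cell RNA was carried mostly by 1 library. The red blood cell list summed to 5.27, 33.7, 912, 4.10 and 13.5 RPM in libraries 1 to 5. The haemoglobin genes alone held 0.0189% ± 0.0397 of the counts (SD, n = 5). Library 3 holds almost the whole of it, and without library 3 the mean share is 0.00121%. Hba1, an alpha chain, had 249, 1208, 33226, 104 and 424 normalised counts, and Hbb, a beta chain, had 43.4, 317, 11164, 21.4 and 135. Both genes have near-identical copies, so their separate values depend on how the counting divided shared reads. Alas2, the haem synthesis enzyme of red cell precursors, averaged 104 ± 212 with 1.07, 27.0, 484, 0 and 10.1 in the 5 libraries, highest in library 3 as well. Library 3 was also the highest of the 5 for the neutrophil list, at 6.84 RPM, and for the platelet list, at 3.54 against 2.08 to 2.29 in the others. Pf4 carried most of the platelet sum, with 156, 108, 169, 169 and 146 normalised counts in libraries 1 to 5. In that measure library 3 did not stand apart for Pf4. The part of blood cells in other values of library 3 was not tested.

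In normalised counts, levels were close between dams for most genes. Among the 3913 genes with a mean of at least 1000 normalised counts, the median SD over the 5 libraries was 0.20 on the log2 scale, 1973 had an SD under 0.2, and 20 had one over 1. Oxidative phosphorylation, citric acid cycle and ribosomal protein genes were among the steadiest lists, with median SDs of 0.15, 0.14 and 0.15. Caseins and fatty acid synthesis were among the widest, with 0.50 and 0.52. This order holds for normalised counts. By share, oxidative phosphorylation ran from 0.341 to 0.614%, the citric acid cycle from 0.243 to 0.442% and ribosomal proteins from 1.33 to 1.93%. Relative to their levels these ranges were wider than that of caseins, 47.8 to 64.4%. Fatty acid synthesis stayed wide by share, at 1.95 to 7.49%. The 5 steadiest genes were Maoa, Sh2b1, Jtb, Nelfa and Coa5. Maoa, a monoamine oxidase, had 1377, 1361, 1336, 1378 and 1392 normalised counts in libraries 1 to 5.

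**Figure D5:**
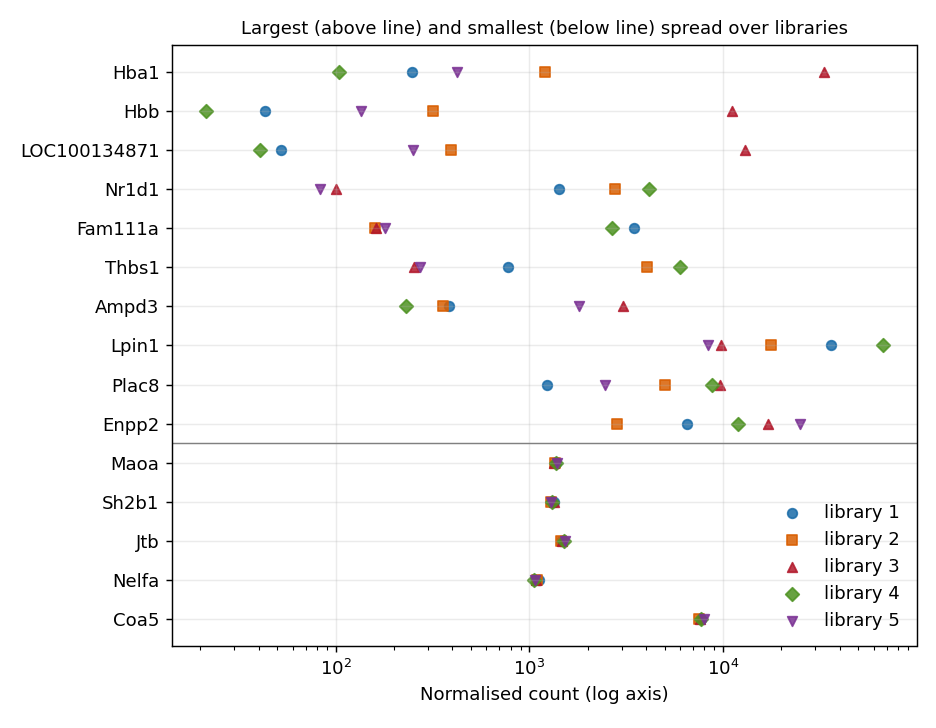
Normalised count (log x axis) in each of the 5 libraries (points) of the 10 genes of largest SD (above the line) and the 5 of smallest SD (below it) among genes with a mean of at least 1000. Hba1, Hbb and LOC100134871 have 1 point, library 3, far above the rest, and Nr1d1, Thbs1 and Lpin1 have libraries 3 and 5 at the low end.

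After Hba1, Hbb and LOC100134871 (the gene Hbbl1 in the reference, a beta-like globin), the 10 genes of largest SD went on with Nr1d1, Fam111a, Thbs1, Ampd3, Lpin1, Plac8 and Enpp2. Nr1d1, the clock repressor Rev-erb alpha, had 1427, 2764, 101, 4150.0 and 83.3 normalised counts in libraries 1 to 5, a range of 49.8 times. It was lowest in libraries 3 and 5. Thbs1, the matrix protein thrombospondin, had 779, 4038, 253, 5959.5 and 273, again lowest in libraries 3 and 5. Ampd3, an AMP deaminase, showed the reverse, with 384, 359, 3030.3, 231 and 1809.9. Fam111a had 3469.6, 159, 162, 2663 and 180.0, high in libraries 1 and 4 only, and Enpp2, the enzyme autotaxin, had 6537, 2841, 17085, 11875 and 25021. Plac8 had 1229, 5019, 9649, 8777 and 2462, highest in library 3 and lowest in library 1.

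Other clock genes were read beside Nr1d1. All 16 clock genes in the table were detected in every library, the highest being Per1 at 6269 ± 2049, Clock at 5375 ± 723 and Csnk1d at 5113 ± 934. Per1, a clock gene that glucocorticoids also induce, had 8785, 6307, 4259, 7768 and 4226 in libraries 1 to 5, and Arntl, the partner of Clock, had 3074, 2745, 2130.1, 3078 and 2369.5. Nr1d2, the second Rev-erb, had 1213, 944, 423, 2092 and 436, and Tef, a clock output factor, had 431, 946, 189, 746 and 166. Of the 16 clock genes, 9 had their 2 lowest values in libraries 3 and 5, among them Nr1d1, Per1, Arntl, Nr1d2 and Tef, beside 429 of the 3913 genes with a mean of at least 1000. The other 7 did not, among them Clock, which had 5534, 5062, 6556, 5009 and 4713, and Cry1, which had 1526, 2064, 2639, 1041 and 2225. A mean of at least 1000 was reached by 9 of the 16 clock genes, Tef not among them. The libraries of this tally were singled out from the values. The hour of milking of each dam is not given in the sources used here.

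Genes known to be induced by glucocorticoids, a list drawn up after values of these libraries were seen, also varied widely, with a median SD of 0.84 on the log2 scale among the 9 with a mean of at least 1000. Fkbp5, a chaperone of the glucocorticoid receptor, had 13493, 11555, 4015, 12919 and 4721 normalised counts in libraries 1 to 5. Tsc22d3, the protein GILZ, had 1268, 2199.9, 531, 2119 and 498, and Zbtb16 had 2259, 1841, 719.8, 3515 and 517. All 3 had their lowest values in libraries 3 and 5. Glul, glutamine synthetase and the highest of the list, had 38171, 54111, 25216, 43373 and 26753, with the same 2 libraries lowest. Of the 16 genes in the list, 11 had these 2 libraries lowest, beside 429 of the 3913 genes with a mean of at least 1000. Only 9 of the 16 reach that mean, and Per1 is in the clock tally as well. Sgk1, a kinase of the list, did not follow, at 3039, 931, 2815, 4308 and 819.6, with library 3 among the higher values. The libraries that are low for these genes were singled out from the values, so the pattern is a description of 5 dams and was given no test.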

How the data were processed

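RNA of milk fat was measured in 5 P10 saline libraries out of 20. Per the labels' protocols, each stranded mRNA library used 190 ng of RNA or more and gave single-end reads of 100 bp. DESeq2 and rn6 are named, without version, per the submitters' processing notes; which aligner, counter and annotation were used is not given in the sources used here. Gene expression was deposited as log2-scale values for 16748 genes. The table is named rlog, but a variance-stabilizing transformation was inferred from its values, since 31.3% of the entries of these libraries share the lowest one, 5.46, taken as a count of 0. Inverting that form gave the normalised counts, so every normalised count and share rests on this inference. Over 1024 genes the means of the 10 P10 libraries were 1.17 times the deposited base means (CV 0.292%), a constant ratio. Another 10 value columns, those of P11, were not used. Reads per library were estimated from the steps of values under 6, of which 97.6% to 99.2% lay within 5% of a whole number of reads. On simulated libraries the largest error of this estimate was 0.782%. The simulation let the scaling of a gene vary only slightly and independently of its level. The error in the real libraries can therefore be larger and was not measured.

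The members and lists were chosen with earlier results of these data known. The lists hold 1113 entries, of which 1021 matched the table by symbol or synonym; 16619 gene IDs were in the reference table, and 25 symbols that had become dates were restored by ID. A further 3 lists (glucocorticoid-induced genes, haemoglobin with Hbbl1, ribosomal RNA) were added after values were seen. Genes named are the 30 highest by mean value, the 3 highest of each list, up to 4 undetected members of each cell type list, and, among genes with a mean of at least 1000 normalised counts, the 10 of largest and 5 of smallest SD. Other genes named, such as Krt5, Csf1r, Tef and Tsc22d3, were picked after their values were seen. A few list members that the rule would name are not reported here, though they stay in list counts and sums. Promoter sequences are RefSeq on GRCr8. Python 3.11.15, numpy 2.4.6 and pandas 2.3.3 were used.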

Additional observations from a re-analysis of the deposited data

Results flagged for a closer look

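Of 247 measures checked for a library far from the other 4, 17 stood out, where chance gives about 1 in 20. The measures overlap, so the 17 cannot be set against that rate. The haemoglobin share and haemoglobin list are the same value, and the red blood cell list, Hbbl1 list and globin genes share its reads. The flagged values of Gp1bb, Mcpt1 and Apoa1 lie near a count of 0. Library 3 was the one that stood out in 11. Its haemoglobin share was 0.0898%, against 0.000249% to 0.00314% in the others, its red blood cell list 0.0912%, its haemoglobin list with Hbbl1 0.115%, and its platelet list 0.000354%. The globin genes behind these were Hba1 at 33226 normalised counts, Hbb at 11164, LOC100134871 at 12999 and Hba-a2 at 1721 in library 3. The platelet list rested mostly on Pf4, which did not stand apart in library 3 in normalised counts. Gp1bb, another platelet gene, had 5.94 in library 3. Mcpt1, at 1.34 in library 3, had no read in the other 4 libraries.

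The others were single genes. In library 2, Stat5a was high at 21262 normalised counts, Sox10 at 22216, and Apoa1 had 2.33 where the others had none. In library 4, Fth1 was high at 103131 and Serpina1 at 82.7. In library 1, Gpi was low at 6776, against 9178 to 9644 in the other 4.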

How the results depend on the processing

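Leaving out 1 library at a time gave 10542 to 10698 genes detected in all remaining libraries, 3 to 4 genes holding 50% of the counts, 1267 to 1497 holding 90%, 66.7% to 70.2% in the 10 highest genes, 63.9% to 68.2% in caseins and whey proteins (65.8% with all 5), 1.61% to 1.76% in ribosomal proteins, and 0.00394% to 0.00437% in neutrophil and macrophage markers. The haemoglobin share ran from 0.00121% (without library 3) to 0.0236%. Taking 2 to the power of the deposited value, less the same for the lowest value, in place of the exact inverse gave 0.00502% for neutrophil and macrophage markers, and moved 38 of 183 named genes, 4 of them among the 131 with a mean of at least 1000. Counting a gene as detected from 10 normalised counts gave 9360 genes. Scaling by transcript length was not run, since the reference used gives no transcript length. Adding Hbbl1 (0.0242%) and leaving out ribosomal RNA (1401 genes for 90%) were chosen after seeing the data. No paired analysis was possible because a single group is described and the columns carry no dam number.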
